A study of Mus musculus with 18 samples.

Results

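The comparison described here follows mouse fibroblasts made to lack the transcription factor Nrf1 (gene Nfe2l1, not the unrelated gene whose symbol is Nrf1) between 6 h and 24 h of proteasome inhibition. It rests on 6 of the 18 RNA-seq libraries of the series, the 3 taken from Nrf1-knockout (Nrf1-KO) NIH-3T3 cells after 6 h and the 3 taken after 24 h in 200 nM carfilzomib (CFZ), and on every gene that passed a filter on low counts, 11762 of the 23420 symbols in the table. The remaining libraries hold Nrf1-KO cells in DMSO, the vehicle, and wild-type (WT) NIH-3T3 cells in DMSO or in 200 nM CFZ for 6 h or 24 h, with 3 libraries a group. NIH-3T3 is an immortalized line of mouse embryonic fibroblasts, and the Nrf1-KO line was made from it with CRISPR/Cas9. All groups were grown in the same serum-containing medium. The sources used here give neither a duration for DMSO nor whether the Nrf1-KO line is 1 clone, so a difference between the lines is a difference between these 2 lines. The study design names the 3 libraries of a group as biological replicates.

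CFZ binds the catalytic subunits of the proteasome, the protease that removes ubiquitin-tagged proteins, and does so irreversibly. Cells in which it is blocked accumulate unfolded and short-lived proteins, induce cytosolic chaperones through HSF1, chaperones of the endoplasmic reticulum (ER) through the unfolded protein response, and antioxidant genes through Nrf2. They also normally rebuild the proteasome, because Nrf1, an ER-bound factor that is itself destroyed by the proteasome, escapes degradation, is cleaved, and switches on the proteasome genes together. The 2 times in Nrf1-KO cells therefore show how the transcriptome moves from an early to a late stage of inhibition in cells in which this feedback was targeted. No DMSO group is matched to each time, so longer inhibition and longer culture cannot be told apart.

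The 6 h libraries held 8333148 to 13679758 counted reads and the 24 h libraries 14847906 to 18923605. Between 12940 and 13312 symbols had a read at 6 h and between 13843 and 14090 at 24 h, and the 10 most abundant genes took 7.31 to 7.45% of the reads at 6 h and 9.28 to 9.57% at 24 h. Each of the 18 libraries correlated best with one of its own group. Levels are given as CPM (read counts scaled to a common library total) after TMM scaling, which assumes that most genes keep their share of the RNA. They are shares of each library and not amounts per cell, and in bulk RNA fewer cells of a kind and less RNA per cell cannot be told apart. Of 12 fibroblast markers 11 passed the filter, and the summed level of these 11 was 27730 to 34020 CPM in DMSO, 28840 to 32550 CPM at 6 h and 11140 to 13210 CPM at 24 h. Between 6 h and 24 h 8 of the 11 fell, 6 of them by at least 2-fold, and 1 rose (38.3%, 9.22% and 38.7% of all genes tested). S100a4, a calcium-binding protein whose exons overlap another gene on its strand, fell from 879.5, 861 and 848 to 128, 151 and 165 CPM. The intermediate filament gene Vim had 3 libraries at 3429, 3387 and 3273 CPM at 6 h and at 3452, 3499 and 3402 at 24 h (log2 fold change 0.04, SE 0.033, not called). Defining markers of epithelial, endothelial, immune, muscle and fat cells each summed to at most 14.13 CPM, before TMM scaling, in any Nrf1-KO library.

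Nfe2l1 itself (chr11:96817414-96829968, minus strand, GRCm38 in GENCODE M21) is the targeted gene. Its transcripts stood at 174, 185 and 181 CPM in the DMSO libraries of the Nrf1-KO cells, at 414, 416 and 427 CPM after 6 h and at 209.5, 202 and 201 CPM after 24 h. The groups at 6 h and 24 h did not overlap, and the 24 h libraries lay just above those in DMSO (log2 fold change -1.03, SE 0.034, adjusted p = 1.11e-22). In WT cells it stood at 642 ± 12.4 CPM at 6 h and 565 ± 13.4 CPM at 24 h (SD, n = 3; log2 fold change -0.18), and the difference between the lines in this change was -0.85 on the log2 scale (SE 0.047, adjusted p = 1.32e-15). In each of the 3 treatments its level was lower in all Nrf1-KO libraries than in any WT library, as the labels have it, but the edited site is not given and reads over the rest of the gene do not report on the protein.

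**Figure D1:**
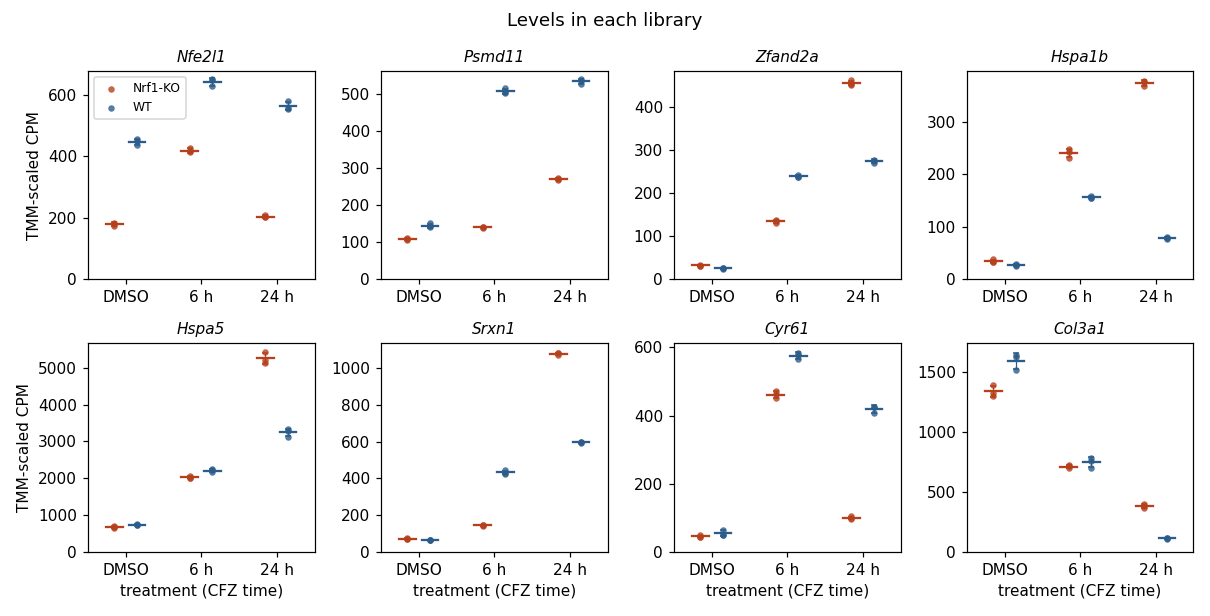
Levels of 8 genes in each library as TMM-scaled CPM (linear axes that start at 0), in Nrf1-KO (red) and WT (blue) cells in DMSO and after 6 h and 24 h in 200 nM CFZ. Points are libraries, horizontal bars the mean and whiskers the SD (n = 3). Nfe2l1 went from 418.8 CPM at 6 h to 204.4 CPM at 24 h in Nrf1-KO cells, while Zfand2a, Hspa1b, Hspa5 and Srxn1 rose there to levels above those of WT cells.

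From 6 h to 24 h, 4550 genes were higher (38.7% of those tested) and 4507 were lower (38.3%) at an adjusted p below 0.05. With a fold change of at least 2 besides, 772 genes were higher (6.56%) and 1084 lower (9.22%), and 201 and 258 passed 4-fold. The median log2 fold change over all genes tested was 0.0018. In WT cells 1421 genes passed 2-fold over the same interval, and of the 1856 that did so in Nrf1-KO cells 1614 were called in WT cells in the same direction. The change differed between the lines for 5054 genes, being more positive in Nrf1-KO cells for 2438 (20.7%) and more negative for 2616 (22.2%). With library size alone in place of TMM scaling these were 1610 and 3738, so the split between the directions depends on the scaling (48.2% more positive against 30.1%).

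Some of the genes with the largest rises had almost no reads at 6 h. Skint7, a member of an immunoglobulin-like family first described in skin, had 1 read in the 3 libraries at 6 h and 1110 at 24 h, a ratio of 769 after scaling to library size (95% exact counting interval 138 to 30400). Prg4, which encodes the joint lubricant lubricin, had 2 reads against 630 (ratio 218, interval 60.2 to 1810), Slc35f1 had 2 against 328 (ratio 114, interval 31.2 to 942) and Stmn4 had 3 against 328 (ratio 75.7, interval 25.7 to 369). These intervals cover counting error only. The same 4 genes also rose in WT cells, and the difference between the lines was not called for Skint7, Prg4 or Stmn4. That of Slc35f1 passed narrowly (2.94, adjusted p = 0.0491) and was lost with library size alone (2.85), with the compared groups only (2.97) and without any of the 3 Nrf1-KO libraries of 24 h (2.95 to 2.98).

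Prl2c2, a proliferin of the prolactin family, was the most abundant of the genes with the largest rises. It had 6.6, 6.64 and 8.03 CPM at 6 h and 477, 522 and 535 CPM at 24 h (log2 fold change 6.20, SE 0.078, adjusted p = 1.45e-33), and near-identical family members can share its reads. Tnfrsf22, a decoy receptor for the death ligand TRAIL, rose from 16.7, 15.4 and 14.2 to 234, 219 and 214 CPM (log2 fold change 3.83, in WT 2.88). Adamts4, an aggrecan-cleaving protease, rose from 3.6, 4.17 and 4.08 to 62.8, 62 and 55.5 CPM (log2 fold change 3.93, in WT 2.82). The predicted gene Gm5886 rose from 1.47, 1.54 and 1.8 to 51.6, 65.3 and 72.1 CPM. In WT cells it had no read in any 6 h library and 0.305, 0.24 and 0.186 CPM at 24 h, so its difference between the lines cannot be sized. Rnf183, Aloxe3, Serpinb1b, Atg9b, Cnga3, Spink5 and Pyhin1 completed the list of the 15 largest rises, with log2 fold changes from 3.75 to 6.1 and means of at most 10.5 CPM at 24 h.

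The largest falls were in genes of 2 kinds, secreted matrix proteins and growth factors on one side and cell division on the other. Igf1, insulin-like growth factor 1, fell from 17.9, 13.8 and 16.2 CPM to 0.211, 0.111 and 0.254 CPM (log2 fold change -6.35, SE 0.23), or from 558 reads to 9. Eln, which encodes elastin, fell from 59.1, 62.8 and 56.4 to 1.13, 1.17 and 0.254 CPM (log2 fold change -6.11, SE 0.14), with a log2 fold change of -7.1 in WT cells. Its difference between the lines (0.98, adjusted p = 0.0208) was lost without Nrf1-KO 24 h library 1 or 2 or WT 24 h library 3. Edn1 (endothelin 1), Ptn (pleiotrophin), Sparcl1, Aspn, Efemp1, Cd248 and Pcolce, all secreted or cell-surface proteins of connective tissue, fell by between 4.01 and 4.49 on the log2 scale. The fall of Efemp1, from 487, 474 and 492 to 27.5, 29.5 and 27.8 CPM, was of similar size in WT cells (log2 fold change -4.1 against -4.03, difference -0.06, SE 0.064). The 6 others among the 15 largest falls, Cenpf, Iqgap3, Hmmr, Gen1, Kif15 and Ccna2, act in DNA repair, the spindle, cytokinesis or the cyclin cycle, and each of these fell further in Nrf1-KO than in WT cells.

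The genes of mitosis fell together and further in Nrf1-KO cells than in WT cells. All 25 listed kinases, kinesins, cyclins and kinetochore proteins were expressed, and all 25 fell by at least 2-fold between 6 h and 24 h, against 9.22% of all genes tested. In all 25 the libraries of the 2 times did not overlap, which also held for 1834 of the 1856 genes of any kind that passed 2-fold. Their median log2 fold change was -2.54, against -1.02 for the same genes in WT cells, and the change was more negative in Nrf1-KO cells for all 25 (background 22.2%). Their summed level was 3382 CPM in DMSO, 2348 CPM at 6 h and 472.7 CPM at 24 h (means of 3 libraries).

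Cenpf (chr1:189640606-189688086), a kinetochore protein that also binds the nuclear envelope at the onset of mitosis, had 148, 134 and 130.2 CPM at 6 h and 3.8, 5.27 and 3.23 CPM at 24 h (log2 fold change -5.05, SE 0.097, adjusted p = 7.98e-29). In WT cells it went from 129.7 ± 7.88 to 56.8 ± 2.72 CPM, and the lines differed by -3.85 (SE 0.13, adjusted p = 5.56e-21). No library of the 24 h group came near any library of the 6 h group, and the 24 h level in WT cells stayed above 50 CPM in each library. Ccna2, cyclin A2, fell from 102, 101 and 94.7 to 6.48, 5.88 and 6.41 CPM (log2 fold change -4.0, in WT -1.68, difference -2.31). Ccnb1, cyclin B1, fell from 76.1, 75.8 and 73.9 to 13.7, 14.5 and 13.6 CPM (log2 fold change -2.43, in WT -0.51, difference -1.92). Both cyclins were already lower at 6 h than in DMSO, where they had 199, 200.3 and 199 and 140.0, 134 and 136 CPM.

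Plk1, the kinase that drives entry into and exit from mitosis, fell from 37, 33.8 and 34.6 to 2.89, 2.83 and 3.11 CPM, whereas it kept a mean of 17.5 ± 1.16 CPM in WT cells at 24 h (difference -2.76, SE 0.13). Foxm1, the transcription factor of the late cell cycle genes, fell from 122, 118 and 116 to 16.4, 16.5 and 14.9 CPM (log2 fold change -2.9, difference -1.58). The smallest fall of the list was that of Tpx2, a spindle assembly factor (log2 fold change -1.24), and Cdk1, the kinase partner of the mitotic cyclins, was at 30.1, 31.7 and 34.1 CPM at 24 h (log2 fold change -1.59). Among genes whose difference between the lines was called and whose count averaged 50 or more in the CFZ libraries, the 8 with the most negative difference between the lines were Cenpf, Hmmr, Nuf2, Gen1, Iqgap3, Plk1, Kif2c and Mki67. Of these, Hmmr, which organizes spindle poles, fell from 96.8, 91.1 and 97.7 to 4.01, 4.77 and 3.36 CPM (difference -3.27), and Mki67, the proliferation marker Ki-67, from 393, 346 and 294 to 28, 28.1 and 22.1 CPM (difference -2.51).

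Many promoters of late cell cycle genes hold CCAAT boxes, bound by NF-Y, and a cell cycle homology region (CHR), bound by the MuvB complex that represses them in non-dividing cells. The 120 bases before the start of transcription are shown for 4 of the genes that fell, with CCAAT and TTTGAA (either strand, so ATTGG and TTCAAA as well) in capitals. Those of Top2a and Cdc20 hold both, and those of Ccnb2 and Hmmr hold CCAAT alone. They are RefSeq sequences on GRCm38.p6, 5′ to 3′ on the strand of the gene, at chr11:99024190-99024309 for Top2a (DNA topoisomerase II), chr4:118437344-118437463 for Cdc20 (activator of the anaphase-promoting complex), chr9:70421555-70421674 for Ccnb2 (cyclin B2) and chr11:40733438-40733557 for Hmmr.
Top2a: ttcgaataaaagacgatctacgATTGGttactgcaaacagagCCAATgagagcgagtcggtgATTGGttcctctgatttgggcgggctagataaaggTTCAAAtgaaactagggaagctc
Cdc20: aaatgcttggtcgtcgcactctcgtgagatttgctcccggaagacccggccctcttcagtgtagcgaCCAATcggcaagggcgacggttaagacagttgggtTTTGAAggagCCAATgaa
Ccnb2: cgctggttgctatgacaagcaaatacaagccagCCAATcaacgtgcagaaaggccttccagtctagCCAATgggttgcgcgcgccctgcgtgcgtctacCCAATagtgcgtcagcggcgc
Hmmr: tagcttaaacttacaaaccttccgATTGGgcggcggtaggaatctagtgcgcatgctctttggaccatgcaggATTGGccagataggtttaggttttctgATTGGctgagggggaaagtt
CCAAT and TTTGAA were searched for over the 250 bases before each start. CCAAT was found in the promoters of 17 of the 20 mitosis genes with an entry (85.0%). It was found in 33.8% of all 32851 promoters and for 41.6% of the 8781 genes tested that had an entry. CCAAT was not particular to mitosis genes. It was found for 20 of 25 ER chaperone and degradation genes (80.0%), a list of which most members rose, and for 15 of 16 cholesterol synthesis genes (93.8%). TTTGAA was found for 7 of 20 (35.0%), against 16% of all promoters and 12.4% of the genes tested. These matches describe letters and not bound sites.

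Top2a fell from 412, 408 and 379.5 to 62.3, 59.4 and 55.7 CPM, Cdc20 from 130.0, 135 and 137 to 29.1, 29.5 and 27.5 CPM, and Ccnb2 from 13.3, 14.1 and 14.8 to 1.41, 0.61 and 0.951 CPM. Their log2 fold changes were -2.76, -2.22 and -3.85 in Nrf1-KO cells against -1.02, -1.17 and -1.87 in WT cells. All 3 differences between the lines were called.

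**Figure D2:**
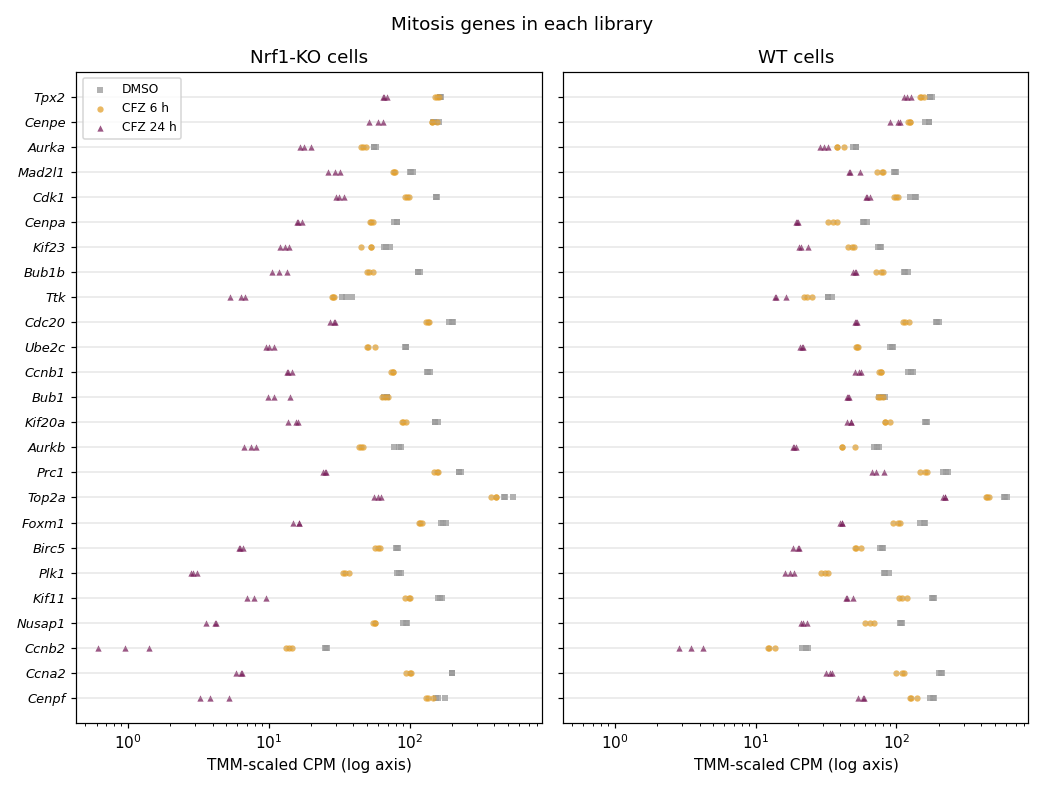
Levels of the 25 mitosis genes in each library of Nrf1-KO (left) and WT (right) cells as TMM-scaled CPM on a log axis, in DMSO (squares) and after 6 h (circles) and 24 h (triangles) in 200 nM CFZ, ordered by their log2 fold change in Nrf1-KO cells. In Nrf1-KO cells the 24 h libraries lie below the 6 h libraries for all 25 genes, and Cenpf, with the largest fall, lies at 3.23 to 5.27 CPM.

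Genes of DNA replication fell less, and some rose. Of 27 listed genes 22 were lower and 2 higher at 24 h, against 38.3% and 38.7% of all genes. Of the 27, 7 were at least 2-fold lower (9.22% of all genes), and the median log2 fold change was -0.80 (WT -0.42). The change was more negative in Nrf1-KO cells for 18 and more positive for 1 (background 22.2% and 20.7%). Tk1, thymidine kinase 1, fell from 52.5, 51.3 and 46.6 to 6.2, 7.99 and 7.55 CPM (log2 fold change -2.79, difference -1.19), and Rrm2, the regulated subunit of ribonucleotide reductase, from 92.5, 92.4 and 83.1 to 23.3, 24.3 and 22.6 CPM (log2 fold change -1.94, difference -1.08). Against the list's direction, Mcm7, a helicase subunit, rose slightly from 166, 171 and 150.1 to 185, 182 and 181 CPM. The other gene that rose, not named here, did so by at least 2-fold (6.56% of all genes), and the largest log2 fold change in the list was 1.6. Mcm7 was the 1 gene with a more positive change in Nrf1-KO cells (difference 0.59, SE 0.063), and it fell in WT cells (log2 fold change -0.42).

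Of 23 growth arrest genes 6 were higher (3 with library size alone) and 13 lower, against 38.7% and 38.3% of all genes, with a median of -0.15. Cdkn1a, the CDK inhibitor p21, had 260.3, 262 and 260.5 CPM at 6 h and 268, 266 and 256 at 24 h. The groups overlapped and the change was not called (log2 fold change 0.01), while it fell in WT cells (log2 fold change -0.39, difference 0.4, adjusted p = 1.07e-08). Mdm2, the ubiquitin ligase of p53, rose from 316, 321 and 323 to 589, 576 and 593 CPM (log2 fold change 0.87, difference 0.66). Trp53inp1, a p53-induced nuclear protein, rose from 87.9, 82.1 and 85.5 to 175, 161 and 163 CPM, whereas in WT cells its log2 fold change was -0.04 and not called (difference 1.0). Ccnd1, cyclin D1, fell from 168, 167 and 163 to 78.9, 87.9 and 75.5 CPM.

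Of the BCL2 family, which controls mitochondrial apoptosis, 7 of 15 tested genes rose and 5 fell, shares near those of all genes (38.7% and 38.3%). Bcl2l11, the pro-apoptotic BIM, rose from 10.4, 10.7 and 8.15 to 22.9, 22.5 and 22.3 CPM (log2 fold change 1.18, SE 0.093), more than in WT cells (log2 fold change 0.36, difference 0.82, adjusted p = 6.57e-05). Bok, another pro-apoptotic member, rose from 43.3, 40.0 and 42.8 to 76.8, 79.3 and 84.4 CPM. The anti-apoptotic Bcl2 fell from 23.3, 22.5 and 23.5 to 14.4, 11.1 and 11 CPM, and Bbc3 (PUMA) from 21.2, 22.1 and 25.1 to 11.3, 13.7 and 13.6 CPM. Bmf had 1.83, 2.01 and 2.64 CPM at 6 h and 2.18, 2.61 and 1.84 CPM at 24 h, with overlapping groups and a log2 fold change of 0.09, not called, against -2.0 in WT cells.

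Subunits of the proteasome rose by small amounts. Of the 14 genes of the 20S catalytic core 9 rose and none fell (8 and 1 with library size alone), against 38.7% of all genes higher, and of the 18 genes of the 19S regulatory cap 13 rose and 2 fell. No member of either list reached 2-fold (the background was 6.56% at least 2-fold higher), and the median log2 fold changes were 0.22 and 0.24 (WT 0.20 and 0.083). The summed level of the 20S genes was 1435 CPM in DMSO, 1409 CPM at 6 h and 1654 CPM at 24 h in Nrf1-KO cells, and 1761, 3838 and 4481 CPM in WT cells. That of the 19S genes was 2431, 2724 and 3347 CPM in Nrf1-KO cells and 2890, 7589 and 8508 CPM in WT cells. The interval from 6 h to 24 h therefore did not bring either sum in Nrf1-KO cells to the level that WT cells had at 6 h.

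The exception in size was Psmd11 (chr11:80428615-80473248), a lid subunit that helps to assemble the 26S proteasome. It had 141, 139 and 142 CPM at 6 h and 269.8, 273 and 269 CPM at 24 h (log2 fold change 0.94, SE 0.034, adjusted p = 1.12e-21), and in WT cells 508 ± 6.6 and 534 ± 6.73 CPM. Its change differed between the lines by 0.87 (SE 0.046, adjusted p = 3.71e-16), and at 24 h its 3 Nrf1-KO libraries still lay below the WT libraries. Psmd8 and Psmd4, the latter a ubiquitin receptor, rose by 0.74 and 0.63 on the log2 scale, while Psmd6 fell from 85, 89.8 and 96.2 to 71.8, 74.3 and 80.4 CPM (log2 fold change -0.25). Of 15 assembly factors, activators and immunoproteasome genes 6 rose and 4 fell, against 38.7% and 38.3% of all genes. Pomp, which matures the core particle, rose from 65.8, 70.2 and 65 to 101, 107 and 119 CPM (log2 fold change 0.7), and the assembly chaperones Psmd5 and Psmg1 fell (log2 fold change -0.74 and -0.93).

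Of 20 ubiquitin genes, shuttle factors and p97 cofactors 11 rose and 7 fell, against 38.7% and 38.3% of all genes, and 3 rose by at least 2-fold (6.56%). Zfand2a (chr5:139471211-139484549), an arsenite- and heat-inducible protein that associates with the proteasome, rose from 131, 135 and 137 to 452, 462 and 453 CPM (log2 fold change 1.76, SE 0.034, adjusted p = 7.08e-29). In WT cells it went from 239.6 ± 3.07 to 274 ± 4.22 CPM, a difference between the lines of 1.57 (SE 0.047), so Nrf1-KO cells began below WT cells at 6 h and ended above them. The polyubiquitin gene Ubb rose from 449, 452 and 508 to 1389, 1384 and 1529 CPM (log2 fold change 1.61, in WT 1.35). Vcp, the unfoldase p97, rose from 455, 450.1 and 427 to 599, 575 and 539 CPM (log2 fold change 0.36), and its change in WT cells was not called (log2 fold change -0.02, difference 0.38).

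Among the relatives and partners of Nrf1, Nfe2l2, which encodes Nrf2, fell slightly, from 166, 171 and 169 to 155, 155 and 147 CPM (log2 fold change -0.15). Its repressor Keap1 fell from 45.2, 42.5 and 46.3 to 28.2, 29 and 28.8 CPM (log2 fold change -0.63, difference -0.52). Bach1, the repressor that competes at the same elements, rose from 68.4, 65.4 and 61.4 to 122, 121 and 119 CPM (log2 fold change 0.88) and did not pass the test in WT cells (-0.06, difference 0.94). The small Maf partners Maff, Mafk and Mafg rose by 1.3, 1.18 and 0.72 on the log2 scale. Ngly1, the N-glycanase that activates Nrf1, fell from 21.2, 22 and 21.2 to 6.83, 4.16 and 7.17 CPM (log2 fold change -1.85, in WT -1.05, difference -0.8).

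Of the 23 listed heat shock genes that were expressed 10 rose and 13 fell between 6 h and 24 h (38.7% and 38.3% of all genes). The median log2 fold change was -0.21 (WT -0.305). Their summed level was 9352 CPM in DMSO, 39780 CPM at 6 h and 55340 CPM at 24 h. This sum is weighted to abundant genes, and Hspa8 and Cryab went from means of 6900 and 941.2 CPM at 6 h to 19010 and 7846 CPM at 24 h. Cryab, the small heat shock protein alpha-B-crystallin, rose from 905, 924 and 995 to 7415, 8066 and 8055 CPM (log2 fold change 3.06, in WT 3.21). Hspa8, the constitutive cytosolic Hsp70, rose from 6689, 6858 and 7154 to 18170, 18700 and 20160 CPM (log2 fold change 1.46, difference 0.46). Chordc1 and Bag3, co-chaperones of Hsp90 and Hsp70, fell from 386, 377 and 402 to 159, 166 and 185 CPM and from 562, 552 and 543 to 303, 276 and 276 CPM. For both genes the 2 times did not overlap.

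The inducible Hsp70 genes went in opposite directions in the 2 lines. Hspa1b rose from 248, 242 and 232 to 376, 379 and 368 CPM in Nrf1-KO cells (log2 fold change 0.63, SE 0.037, adjusted p = 3.71e-16) and fell from 156, 158 and 155 to 77, 80.0 and 78.5 CPM in WT cells (log2 fold change -0.99). The difference was 1.63 (SE 0.057, adjusted p = 2.11e-20). Its near-identical neighbour Hspa1a, whose reads can be shared with it, had the same pattern at a lower level (log2 fold change 0.59 and -1.15, difference 1.74). Dnajb1 and Hsph1, the Hsp40 and Hsp110 partners of Hsp70, fell in both lines, by less in Nrf1-KO cells (log2 fold change -0.64 against -1.26, and -0.73 against -1.22). The change was more positive in Nrf1-KO cells for 13 of the 23 genes and more negative for 7, against 20.7% and 22.2% of all genes.

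HSF1 binds inverted repeats of GAA. The palindrome GAANNTTC was found in the promoters of 8 of the 19 heat shock genes with an entry (42.1%), against 6.69% of all promoters. The 120 bases before the start of Hspa1b (chr17:34959239-34959358) show 1 such match, in capitals.
Hspa1b: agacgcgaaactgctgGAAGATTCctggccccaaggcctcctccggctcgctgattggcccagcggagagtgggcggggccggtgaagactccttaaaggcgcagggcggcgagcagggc

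The transcription axis of the integrated stress response, in which the kinase arms of the stress pathways raise ATF4 and then CHOP, held genes that went either way. Of 19 genes 7 rose and 11 fell (38.7% and 38.3% of all genes), 3 and 6 of them by at least 2-fold (6.56% and 9.22%). Atf3 rose from 205, 210.0 and 224 to 417, 433 and 474 CPM (log2 fold change 1.06, SE 0.041), against -0.13 in WT cells (difference 1.19, adjusted p = 1.87e-16). Ddit3, which encodes CHOP, rose from 182, 175 and 179.5 to 306, 318 and 338 CPM (log2 fold change 0.84, in WT 0.13, difference 0.71). Ppp1r15a (GADD34), which reverses the block of translation, rose from 132, 139 and 146 to 356, 359 and 369 CPM (log2 fold change 1.38, difference 0.39). For all 3 genes the change was more positive in Nrf1-KO cells.

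Other members of the axis fell in both lines. Trib3, a pseudokinase that restrains CHOP, fell from 203, 203 and 207 to 64.2, 65.1 and 68.6 CPM (log2 fold change -1.63, in WT -1.3). Chac1, which degrades glutathione, fell from 198, 190.4 and 182 to 70.6, 72.5 and 71.5 CPM (log2 fold change -1.41, difference -0.73). Ddit4 (REDD1), an inhibitor of mTORC1, had 152, 158 and 164 CPM at 6 h and 159, 159.6 and 161 CPM at 24 h, groups that overlap, and it fell in WT cells (log2 fold change 0.02, not called, against -1.44, difference 1.47). Atf4 itself fell slightly, from 952, 963 and 992 to 789.6, 815 and 852 CPM.

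Amino acid supply, many of whose genes are ATF4 targets, fell back almost as a whole. Of 19 genes 17 fell and 1 rose, against 38.3% and 38.7% of all genes. Of the 19, 5 fell by at least 2-fold (9.22% of all genes), and the median log2 fold change was -0.76 (WT -0.77). Mthfd2, of mitochondrial one-carbon metabolism, fell from 318, 328 and 321 to 122, 124 and 122 CPM, and Slc7a5, the carrier LAT1, from 789.8, 794 and 792 to 333, 303 and 284 CPM. The gene that rose was Slc7a11, the cystine importer, from 286, 265 and 246 to 409, 384 and 349 CPM (log2 fold change 0.51), and its change in WT cells was not called (difference 0.42, adjusted p = 1.12e-05). Of the 20 aminoacyl-tRNA synthetase genes 12 fell and 6 rose, none by 2-fold, against 38.3% and 38.7% of all genes lower and higher.

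Chaperones of the ER rose further in Nrf1-KO cells. Of 29 chaperone and ER-associated degradation genes 18 rose and 8 fell (38.7% and 38.3% of all genes), and 5 rose by at least 2-fold (6.56%). The change was more positive than in WT cells for 16 and more negative for none (background 20.7% and 22.2%), though with library size alone 3 members were more negative. Hspa5 (chr2:34771970-34777547), the ER Hsp70 BiP, had 677, 650.3 and 698 CPM in DMSO, 2013, 2010 and 2066 CPM at 6 h and 5131, 5204 and 5425 CPM at 24 h (log2 fold change 1.37, SE 0.035, adjusted p = 1.08e-25). The groups were well apart, and the line difference was 0.81 (SE 0.049, adjusted p = 8.06e-15). Dnajb9, a co-chaperone of BiP, rose from 10.1, 11 and 9.83 to 29.8, 31.9 and 34.1 CPM (log2 fold change 1.63, in WT 0.6, difference 1.03). Hyou1, the ER Hsp110, rose from 185, 196 and 192 to 459, 444 and 438 CPM (log2 fold change 1.23, difference 0.38), and the oxidoreductase gene Ero1lb from 11.4, 9.5 and 8.63 to 32, 32.2 and 30.1 CPM. The sensor kinase gene Ern1 (IRE1) rose as well (log2 fold change 1.02), while its target Xbp1 and the degradation factor Herpud1 fell from 196, 208 and 203 to 109.6, 114 and 107 CPM and from 287, 292 and 299 to 161, 170.3 and 165 CPM.

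Antioxidant genes, the targets of Nrf2-type response elements, rose more in Nrf1-KO than in WT cells. Of 22 genes 17 rose and 4 fell (38.7% and 38.3% of all genes), 6 rose by at least 2-fold (6.56%), and the median log2 fold change was 0.51 (WT 0.064). The change was more positive in Nrf1-KO cells for 17 and more negative for 2, against 20.7% and 22.2% of all genes. Their summed level was 5977 CPM in DMSO, 7593 CPM at 6 h and 15640 CPM at 24 h in Nrf1-KO cells, and 6286, 11470 and 17420 CPM in WT cells. The larger change in Nrf1-KO cells thus began from a lower sum at 6 h and did not bring the sum to that of WT cells at 24 h.

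Srxn1 (chr2:152105516-152111376), sulfiredoxin, which repairs over-oxidized peroxiredoxins, had 144, 142 and 148 CPM at 6 h and 1074, 1083 and 1084 CPM at 24 h (log2 fold change 2.90, SE 0.036, adjusted p = 1.01e-33). In WT cells it was already at 434 ± 9.83 CPM at 6 h and reached 596 ± 1.74 CPM (difference 2.44, SE 0.048, adjusted p = 5.01e-27). The Nrf1-KO libraries therefore lay below those of WT cells at 6 h and above them at 24 h. Prdx1, the peroxiredoxin it acts on, rose from 582, 581 and 588 to 4201, 4419 and 4757 CPM (log2 fold change 2.93, in WT 2.15). Gsta4, a glutathione transferase for lipid peroxidation products, rose from 8.73, 9.81 and 9.11 to 97.3, 108 and 107 CPM (log2 fold change 3.5, in WT 2.26, difference 1.24). Gclc, the catalytic subunit that limits glutathione synthesis, rose from 148, 144 and 154 to 322, 311 and 308 CPM (log2 fold change 1.08, difference 0.5). Nqo1, a quinone reductase, kept 143, 139 and 137 CPM at 6 h and 135, 140.2 and 136 CPM at 24 h, which overlap and were not called, but fell in WT cells (log2 fold change -1.11, difference 1.08). The members that fell were Slc48a1, Gstm1, Tkt and Me1.

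Genes of autophagy and the lysosome rose for the most part. Of 16 autophagy genes 12 rose and 3 fell (median log2 fold change 0.65, WT 0.35), against 38.7% and 38.3% of all genes, and 4 rose by at least 2-fold (6.56%). Sqstm1 (p62), the receptor for ubiquitin-tagged cargo, rose from 1457, 1513 and 1588 to 2704, 2735 and 2725 CPM (log2 fold change 0.84, difference 0.48). Ulk1, the initiating kinase, rose from 42.3, 42.4 and 42.3 to 117, 115 and 108 CPM (log2 fold change 1.42, difference 0.71), and Gabarapl1, an ATG8 protein, from 106, 111 and 117 to 238, 256 and 262 CPM (log2 fold change 1.19, difference 0.66). Of 21 lysosome genes 17 rose and 4 fell (median 0.46, WT 0.53), against the same shares. Ctsl, the protease cathepsin L, rose from 719.5, 739.7 and 754 to 2160, 2268 and 2470 CPM (log2 fold change 1.64). The lysosomal transcription factor gene Tfeb was among those that fell, from 11.1, 11.1 and 11.6 to 2.68, 2.55 and 2.6 CPM (log2 fold change -2.1, in WT -1.13, difference -0.97), with its relatives Tfe3 and Mitf (log2 fold change -0.23 and -0.64).

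Ribosomal protein genes rose nearly without exception. Of 26 genes 25 rose and 1, Rps2, fell, against 38.7% and 38.3% of all genes (median log2 fold change 0.62, WT 0.29). The change was more positive in Nrf1-KO cells for 24 and more negative for none (background 20.7% and 22.2%). Their summed level went from 22720 CPM at 6 h to 34780 CPM at 24 h, with 22350 CPM in DMSO. Rps19 rose from 453, 459 and 486 to 859, 934 and 1007 CPM (log2 fold change 1.0, difference 0.48), and Rplp0 from 2483, 2540 and 2647 to 4036, 4301 and 4765 CPM. Rps2 went from 669, 665 and 671 to 562, 613 and 614 CPM. Ribosomal proteins have many processed pseudogenes, and how reads shared with them were counted is not known. The nucleolar proteins nucleolin (Ncl) and nucleophosmin (Npm1) rose by 0.86 and 0.88 on the log2 scale (WT 0.41 and 0.12). They were among 12 of 23 ribosome biogenesis genes that rose, while 6 fell, against 38.7% and 38.3% of all genes. In contrast, of 24 nuclear-encoded respiratory chain genes 13 fell and 1, Cox4i1, rose (38.3% and 38.7% of all genes), though none passed 2-fold. The change was more negative than in WT cells for 15 (20 with library size alone), against 22.2% of all genes. Sdha, of complex II, fell from 136, 136 and 133 to 80.6, 78.8 and 76.5 CPM (log2 fold change -0.78).

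**Figure D3:**
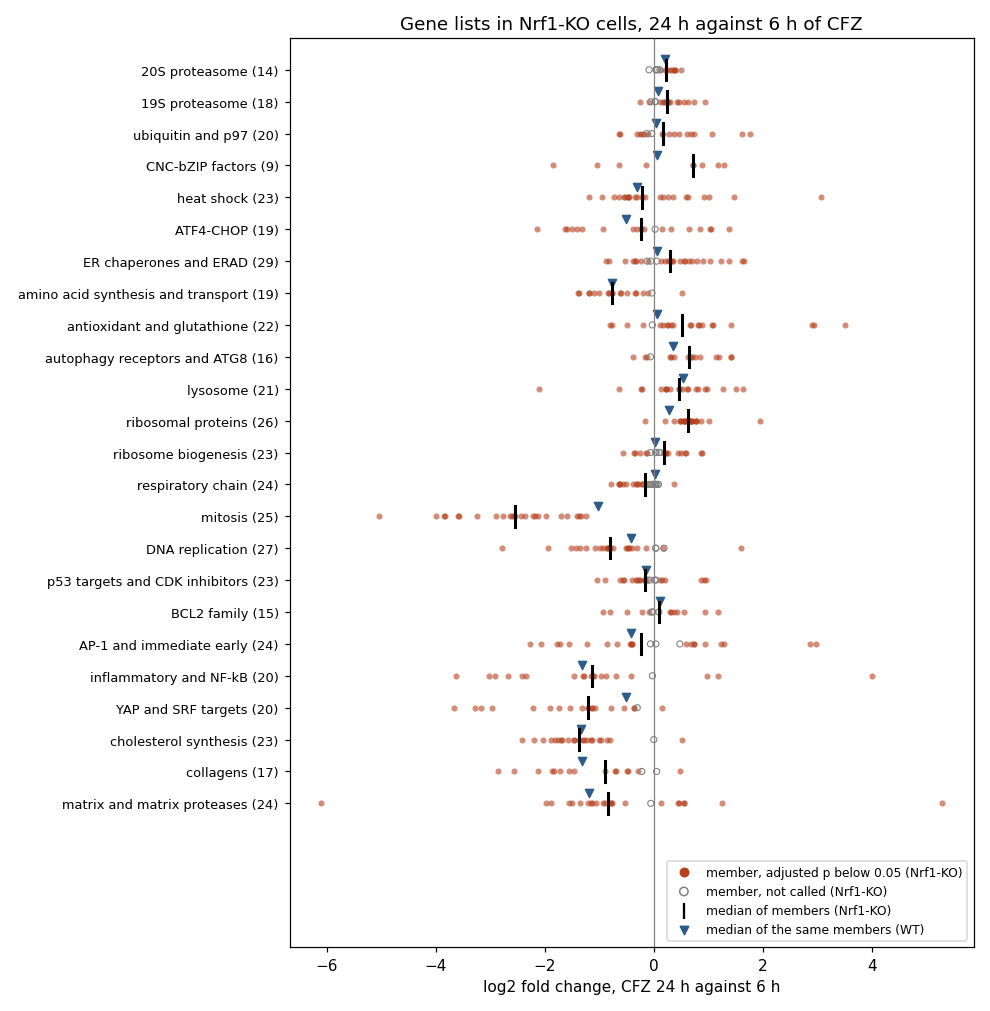
Log2 fold change from 6 h to 24 h of CFZ for the members of 24 gene lists (number tested in brackets). Filled red points are members called in Nrf1-KO cells and open grey points members that were not, black bars the median in Nrf1-KO cells and blue triangles the median of the same members in WT cells. The mitosis list stands lowest, with a median of -2.54 and every member below 0.

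Contractile and cell-spreading genes, targets of YAP with TEAD factors and of SRF, fell and did so further in Nrf1-KO cells. Of 20 genes 18 fell and 1 rose, against 38.3% and 38.7% of all genes. Of the 20, 14 fell by at least 2-fold (9.22% of all genes), and the median log2 fold change was -1.21 (WT -0.52). The change was more negative in Nrf1-KO cells for 13 and more positive for none (background 22.2% and 20.7%). Their summed level was 3854 CPM in DMSO, 4652 CPM at 6 h and 2155 CPM at 24 h.

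Cyr61, a matricellular protein and classical YAP target, had 48.4, 44 and 44.6 CPM in DMSO, 463, 452 and 471 CPM at 6 h and 104, 96 and 98.7 CPM at 24 h (log2 fold change -2.21, SE 0.052, adjusted p = 1.72e-26). WT cells kept 419.7 ± 11.1 CPM at 24 h after 575 ± 9.82 CPM at 6 h, a difference between the lines of -1.76 (SE 0.07, adjusted p = 3.85e-19). At 24 h the level in Nrf1-KO cells thus remained above DMSO while far under that of WT cells. Its relative Ctgf fell from 118, 109.5 and 105 to 10.9, 12.3 and 11 CPM (log2 fold change -3.28, difference -1.47). Acta2, smooth muscle actin, fell from 348, 351 and 322 to 26.1, 25.1 and 29.6 CPM (log2 fold change -3.66, in WT -2.34, difference -1.32), and the actin-binding calponin gene Cnn2 from 267, 271 and 271 to 27.1, 31.3 and 31.3 CPM (log2 fold change -3.17, difference -1.7). Myl9, a myosin light chain, fell from 26.2, 24.1 and 21.9 to 2.96, 2.83 and 3.55 CPM. Srf fell too (log2 fold change -1.53, difference -0.45), whereas its coactivator gene Mkl1 rose by 0.15 on the log2 scale, a call that was lost with library size alone and in which the libraries of the 2 times overlapped.

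TEAD factors bind GGAATG. It was found in the promoters of 9 of the 17 genes of this list with an entry (52.9%), against 12.6% of all promoters. Amotl2, which holds YAP in the cytoplasm and is itself a YAP target, is shown as an example over 120 bases before its start (chr9:102717684-102717803), with the match, here on the opposite strand as CATTCC, in capitals.
Amotl2: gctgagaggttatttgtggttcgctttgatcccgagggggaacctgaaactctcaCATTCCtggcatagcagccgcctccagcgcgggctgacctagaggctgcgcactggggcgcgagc
Amotl2 fell from 245, 247 and 226 to 99.4, 98.4 and 89.3 CPM (log2 fold change -1.32, in WT -1.32), and for this gene the difference between the lines was not called (-0.01, SE 0.066).

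Collagens and other matrix genes fell strongly in both lines, and often by less in Nrf1-KO cells. Of 17 collagen chain genes 14 fell and 1 rose (38.3% and 38.7% of all genes), 8 fell by at least 2-fold (9.22%), and the median was -0.89 (WT -1.32). The change was more positive in Nrf1-KO cells for 9 and more negative for 4 (background 20.7% and 22.2%). The collagens took 21920 CPM at 6 h and 6982 CPM at 24 h. Col1a1 fell from 6484, 5753 and 5258 to 946, 798 and 676 CPM (log2 fold change -2.85, in WT -2.7, difference -0.15, not called). Col3a1 (chr1:45311538-45349706), which forms fibrils with type I collagen, fell from 715, 721 and 695 to 399, 384 and 367 CPM (log2 fold change -0.89), but in WT cells it fell to 114 ± 3.03 CPM (log2 fold change -2.71, difference 1.82, SE 0.061, adjusted p = 5.56e-21). Col5a3 went the other way, with a fall in Nrf1-KO cells and a rise in WT cells (log2 fold change -0.49 and 0.98).

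Of 24 further matrix proteins and proteases 16 fell and 7 rose, against 38.3% and 38.7% of all genes (median -0.84, WT -1.19). The change was more positive in Nrf1-KO cells for 16 and more negative for 4 (background 20.7% and 22.2%). Lox, which cross-links collagen and elastin, fell from 1278, 1258 and 1271 to 344, 319 and 305 CPM (log2 fold change -1.98), and fibronectin (Fn1) from 11290, 10110 and 9421 to 5157, 4380 and 3874 CPM (log2 fold change -1.2). The proteoglycan Vcan rose from 752, 663 and 605 to 1039, 912 and 789.5 CPM and the glycoprotein Tnc from 123, 106 and 89.6 to 188, 154 and 133 CPM (log2 fold change 0.44 and 0.56), and both differed from WT cells, where the values were -0.29 and -0.18. The collagenase gene Mmp13 had 1 read at 6 h and 69 at 24 h (ratio 47.8, interval 8.3 to 1920). Plaur, the urokinase receptor, rose from 54.6, 53 and 53.2 to 126, 127 and 129 CPM. Of the receptors of platelet-derived growth factor, Pdgfrb fell from 183, 181 and 176 to 55.4, 50.5 and 42.7 CPM while Pdgfra rose from 179, 169 and 172 to 303, 288 and 260.4 CPM (log2 fold change -1.87 and 0.71). Smoc2, a matricellular protein, had the most positive of the called differences between the lines, among genes whose count averaged 50 or more (2.68, SE 0.64), with 7.19, 7.57 and 8.75 CPM at 6 h and 0.845, 0.832 and 0.571 CPM at 24 h in Nrf1-KO cells and a mean of 0.101 ± 0.124 CPM (± SD) in WT cells at 24 h.

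The summed level of 23 genes of cholesterol synthesis, driven by SREBP2, was above DMSO at 6 h and below it at 24 h. Between 6 h and 24 h 21 of the 23 fell and 1 rose, against 38.3% and 38.7% of all genes, and 18 fell by at least 2-fold (9.22%). The median log2 fold change was -1.37 (WT -1.34). Their summed level was 5172 CPM in DMSO, 6654 CPM at 6 h and 2304 CPM at 24 h. Cyp51, lanosterol demethylase, fell from 1604, 1619 and 1727 to 347, 368 and 363 CPM (log2 fold change -2.2, in WT -2.6), and Hmgcs1, an early enzyme of the pathway, from 544, 542 and 565 to 132, 134 and 137 CPM (log2 fold change -2.03, in WT -2.61). The change was more positive in Nrf1-KO cells for 13 genes and more negative for 4 (background 20.7% and 22.2%), and with library size alone these were 9 and 8 genes. Acat2, which makes the first intermediate, was among the 4, falling from 193, 194 and 212 to 54.6, 61.7 and 59.1 CPM (log2 fold change -1.76, in WT -0.51, difference -1.25). Dhcr7, of the last step, rose from 37, 34.2 and 34.9 to 55.1, 50.1 and 47.8 CPM and fell in WT cells (log2 fold change 0.52 and -0.54, difference 1.07).

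**Figure D4:**
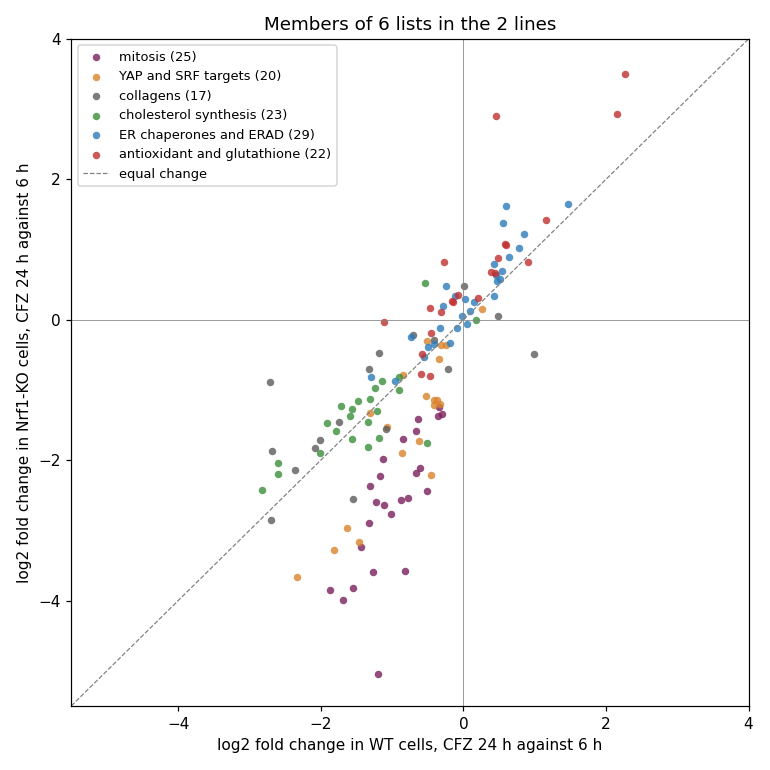
Log2 fold change from 6 h to 24 h of CFZ in Nrf1-KO cells (vertical) against that in WT cells (horizontal) for the members of 6 gene lists, 1 point a gene, with the line of equal change dashed. All 25 mitosis genes lie below the line, and Srxn1 stands apart above it at 2.90 in Nrf1-KO cells and 0.46 in WT cells.

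Inflammatory genes mostly fell back from their levels at 6 h. Of 20 genes 16 fell and 3 rose, against 38.3% and 38.7% of all genes. Of the 20, 12 fell by at least 2-fold (9.22% of all genes), and the median log2 fold change was -1.14 (WT -1.31). The chemokine genes Ccl2 and Ccl7, which attract monocytes, were among those with the most positive difference between the lines. Ccl2 fell from 156, 149 and 160.5 to 52.1, 58 and 57.8 CPM in Nrf1-KO cells (log2 fold change -1.46) and to 11 ± 0.116 CPM from 161 ± 6.54 CPM in WT cells (log2 fold change -3.88, difference 2.41, adjusted p = 5.99e-20). Ccl7 fell from 145, 150.0 and 162 to 61.3, 67.7 and 79.7 CPM (log2 fold change -1.12, in WT -3.52, difference 2.4). Cxcl10, which attracts T cells, fell from 11.2, 12.1 and 11.2 to 0.986, 0.999 and 0.761 CPM, and the feedback inhibitor Tnfaip3 (A20) from 28, 25 and 26.6 to 3.38, 3.66 and 2.73 CPM. Against the list, Ptgs2, cyclooxygenase 2, rose from 379, 370.3 and 374 to 757, 756 and 694 CPM (log2 fold change 0.97, difference 0.46). The adhesion molecule gene Icam1 also rose, from 0.147, 0 and 0 to 0.845, 1.33 and 0.888 CPM, near the limit of detection. Il1rl1, the receptor of interleukin 33, fell in Nrf1-KO cells but rose in WT cells (log2 fold change -0.69 and 0.92).

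Immediate early genes, which respond to stimuli without new protein synthesis, were higher for 9 of 24 and lower for 12, against 38.7% and 38.3% of all genes. Ier3, a stress-induced regulator of survival, rose from 116, 114 and 114 to 906, 912 and 889 CPM (log2 fold change 2.98, in WT 2.17, difference 0.81). Dusp4, a nuclear phosphatase of MAP kinases, rose from 12.1, 11.6 and 12 to 87.2, 91.5 and 82.2 CPM (log2 fold change 2.87). The Krüppel-like factors Klf2, Klf10 and Klf4 fell (log2 fold change -2.28, -2.07 and -1.78), and Myc fell from 171, 169 and 172 to 78.8, 72.7 and 68.7 CPM (log2 fold change -1.22, in WT -0.66, difference -0.56).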

How the data were processed

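RNA from NIH-3T3 cells was sequenced from stranded mRNA libraries as paired reads, and the authors deposited raw counts per gene symbol that they made with STAR and DESeq2 in the RNA Express application. Versions, genome build, annotation and use of strand are not given in the sources used here. Of 23420 rows 27 carry a symbol that a spreadsheet turned into a date, and these cannot be read as genes. Some items are not reported here.

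The counts were fitted with edgeR 4.0.16 in R 4.3.3 (quasi-likelihood F test, TMM scaling) in 1 model of the 6 groups over all 18 libraries, after filterByExpr (minimum count 10, total 15) had kept 11762 genes. A call is a Benjamini-Hochberg adjusted p below 0.05 over all of these. Tests were Nrf1-KO 24 h against 6 h, the same in WT cells, and the difference between the 2. Each SE is the log2 fold change over the root of its F value. The fit was tested on simulated data with 200 changed genes. Total counts per library set the precision, and intervals on reads cover counting error only. Alternatives were DESeq2 1.42.0, other scalings, filters, sets of libraries and thresholds, a replicate block, and each library left out.

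The gene lists and the choice of this comparison were made with earlier results of these data known. Named genes were Nfe2l1, the 15 largest rises and falls with a mean count of at least 50 and no overlap, the 8 largest called differences between the lines in each direction at the same mean count, and up to 4 members at each end of a list with any that went against it. Chosen after their values were seen were Acat2, Amotl2, Atf4, Bmf, Ccnb1, Cdc20, Cdk1, Cdkn1a, Chac1, Col3a1, Col5a3, Cyr61, Ddit4, Ern1, Fn1, Foxm1, Gclc, Il1rl1, Myc, Nqo1, Rplp0, Sqstm1, Srf, Top2a, Tpx2 and Vcp.

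Coordinates come from GENCODE M21 on GRCm38 by symbol, and promoters from RefSeq. By that annotation, genes on the opposite strand cover 28.3% of the exonic bases of Gabarapl1, 26.8% of Ctsl, 23.4% of Ccnd1 and 19.0% of Hspa1a. They cover 10.9 to 17.4% of Il16, Sqstm1, Cryab, Ccna2, Hmgcs1, Icam1, Slurp1 and Keap1. Reads of such overlapping genes cannot be told apart if strand was not used.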

Additional observations from a re-analysis of the deposited data

Results flagged for a closer look

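The difference between the lines was itself tested (edgeR's quasi-likelihood test), and 17 genes are singled out by it: the 8 with the most positive and the 8 with the most negative difference in log2 change from 6 h to 24 h, among genes with a called difference and a mean count of 50 or more in the CFZ libraries, and the targeted gene. Nfe2l1 differed by -0.85. Smoc2 differed by 2.68, Srxn1 by 2.44, Ccl2 by 2.41 and Ccl7 by 2.4. Serpinb1a, an inhibitor of neutrophil proteases whose close relatives can share its reads, had 4.92, 5.17 and 5.4 CPM at 6 h and 10.1, 9.15 and 9.77 CPM at 24 h in Nrf1-KO cells, and 18 ± 0.854 and 5.92 ± 0.201 CPM (SD, n = 3) in WT cells, a difference of 2.5. Krt16, a stress keratin, had 0.734, 1 and 0.839 CPM at 6 h and 6.62, 6.66 and 5.83 CPM at 24 h in Nrf1-KO cells (difference 2.39). The RNA-binding protein gene Mex3b had 10.6, 7.88 and 9.95 CPM at 6 h and 34.5, 35.6 and 31.6 CPM at 24 h (difference 1.97), and P2rx3, an ATP-gated channel gene, 11.8, 11.1 and 9.83 CPM at 6 h and 5.99, 7.1 and 6.66 CPM at 24 h (difference 2.08).

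The 8 most negative differences were in genes of cell division or DNA repair: Cenpf -3.85, Hmmr -3.27, Nuf2 -3.02, Gen1 -2.84, Iqgap3 -2.83, Plk1 -2.76, Kif2c -2.71 and Mki67 -2.51. For these 8 genes the log2 fold change in WT cells was also negative, from -1.95 to -0.61 among Iqgap3, Nuf2 (-0.97), Gen1 (-1.28) and Kif2c. The cause of the differences was not tested.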

How the results depend on the processing

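The 4550 higher and 4507 lower genes between 6 h and 24 h in Nrf1-KO cells were 4399 and 4285 with DESeq2, 4018 and 5020 when only library sizes were used, 4285 and 4765 after scaling to the upper quartile, and 772 and 1084 with a fold of at least 2. Leaving out each library gave 4323 to 4440 higher and 4301 to 4533 lower genes. For the difference between the lines, 2438 more positive and 2616 more negative genes became 1610 and 3738 with library size alone, so that 30.1% and not 48.2% were more positive, and 181 and 311 with a fold of at least 2. Leaving out each library gave 2222 to 2691 and 2179 to 2495. No named gene reversed a called direction under any alternative. Differences between the lines were lost in many alternatives for Slc35f1 (2.94, with 2 reads at 6 h in Nrf1-KO cells) and for the small ones of Mafk (-0.17) and Gstm1 (-0.17). Whether the replicate numbers pair the samples is not given. Deviations of the same number at 6 h and 24 h correlated at only 0.078, 0.017 and 0.034 in Nrf1-KO cells. Each Nrf1-KO library of 6 h nevertheless had its highest such correlation with the 24 h library of the same number. In WT cells this held for number 1 only. A replicate block gave 4580 higher and 4546 lower genes and 2519 and 2670 differences.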

Other observations

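Some genes moved in opposite directions in the 2 lines. Of the 7246 genes called in both lines, 6788 moved the same way, 227 were higher in Nrf1-KO and lower in WT cells, and 231 the reverse. Among genes whose count averaged 50 or more in the CFZ libraries, 5 of each kind changed by at least 1.5-fold in both lines. These were named after their values were seen. Besides Hspa1b, Hspa1a and Serpinb1a, the first kind held Slurp1, a secreted ligand of nicotinic receptors (0.67 in Nrf1-KO and -0.78 in WT cells on the log2 scale), and the cytokine gene Il16 (0.64 and -0.92). Besides Il1rl1, the second kind included the elastic fibre gene Efemp2 (-1.34 and 0.87), the semaphorin receptor gene Plxna3 (-0.64 and 0.99) and Vmac (-0.84 and 0.6).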
